A study of Mus musculus with 8 samples.

Results

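Tuft cells are rare epithelial cells that sense luminal chemicals and answer with eicosanoids, acetylcholine and the cytokine interleukin 25. The 10 genes described here are Dclk1, Trpm5, Pou2f3, Sh2d6, Rgs13, Alox5ap, Ltc4s, Hpgds, Il25 and Avil, found by symbol among the 31053 genes of the deposited single-cell matrix. Single-cell transcript counts came from distal colonic mucosa, taken from 8 mice aged 8 weeks and processed on 1 day after the muscle had been stripped and dead cells removed. The 4 KO-labelled mice (mice 2, 3, 6 and 7; Vil1::Cre;Spry2-f/f) carried a floxed Spry2 gene and Cre recombinase driven by the Villin promoter of intestinal epithelium. The 4 WT-labelled mice (mice 1, 4, 5 and 8; Spry2-f/f) were floxed littermates without Cre, so the floxed allele was shared by all 8 mice. The comparison asks how the mucosa differs once the epithelium is meant to have lost Sprouty2, which restrains signalling by receptor tyrosine kinases.

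In tuft cells, taste-like receptors act through G proteins and phospholipase C to release calcium, which opens the cation channel Trpm5. Arachidonic acid, freed from membranes, is turned into leukotrienes with the help of Alox5ap and Ltc4s and into prostaglandin D2 by Hpgds. Interleukin 25 acts on innate lymphoid cells in the lamina propria. Several of these genes also have homes outside the epithelium: leukotriene genes in myeloid cells, Hpgds in myeloid and mast cells, and Rgs13 in germinal centre B cells.

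In the mm10 build, with the GENCODE M21 annotation, the members lay on 9 chromosomes. Dclk1, a kinase related to doublecortin, spans 55242364 to 55539068 on chromosome 3 (plus strand). Trpm5 spans 143069153 to 143094642 on chromosome 7 (minus strand), and Pou2f3, the POU-domain factor that tuft cells need to form, spans 43123939 to 43210369 on chromosome 9 (minus strand). Sh2d6, which encodes an SH2-domain protein, and Hpgds both lie on the minus strand of chromosome 6, at 72513641 to 72521707 and 65117293 to 65144908. Rgs13, a regulator of G protein signalling, spans 144138654 to 144177372 on chromosome 1 (minus strand). Alox5ap spans 149264767 to 149288153 on chromosome 5 (plus strand), and Ltc4s spans 50236461 to 50238616 on chromosome 11 (minus strand). Il25 spans 54932695 to 54935837 on chromosome 14 and Avil, which encodes the actin-binding protein advillin, spans 127000709 to 127020994 on chromosome 10, both on the plus strand. Dclk1 overlaps 6 other annotated genes, 4 of them on its own strand, Alox5ap overlaps 2, and Trpm5, Ltc4s, Hpgds and Avil overlap 1 each on the opposite strand. Whether the counting used strand is not given in the sources used here, so reads of such neighbours may be held in these counts.

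Promoter sequences from RefSeq (GRCm38.p6, 250 bases before the annotated start) were matched for 7 of the 10 members in 8 windows, Dclk1 having 2. Pou2f3, Alox5ap and Il25 had no entry. The octamer ATGCAAAT, the classical binding sequence of POU-domain factors, was searched on both strands (ATTTGCAT in reverse). It was held by 1 of the 8 member windows and by 526 of all 32851 windows, a share of 1.60%. The match was in Hpgds, with its first base 174 bases before the RefSeq start, and is shown in capitals in the first line, which runs over chr6:65144886-65144915 (minus strand). The other lines are the windows before Trpm5 (chr7:143094643-143094892, minus strand) and Rgs13 (chr1:144177373-144177622, minus strand), shown as 2 members whose levels were high in the same epithelial cells. All are 5′ to 3′. The RefSeq start of Hpgds lies inside the GENCODE M21 span given above, so the match lies before the RefSeq start but within the GENCODE gene, and 1 GENCODE exon overlaps the Hpgds window. No GENCODE exon overlaps the Trpm5 and Rgs13 windows. A match of letters is not a measured binding site, and the lack of one says only that these letters are not in the window.
Hpgds: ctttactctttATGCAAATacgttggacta
Trpm5: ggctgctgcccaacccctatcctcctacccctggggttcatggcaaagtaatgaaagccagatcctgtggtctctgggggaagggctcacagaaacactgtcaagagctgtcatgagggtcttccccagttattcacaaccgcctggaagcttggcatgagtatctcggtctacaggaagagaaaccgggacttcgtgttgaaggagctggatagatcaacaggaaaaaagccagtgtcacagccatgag
Rgs13: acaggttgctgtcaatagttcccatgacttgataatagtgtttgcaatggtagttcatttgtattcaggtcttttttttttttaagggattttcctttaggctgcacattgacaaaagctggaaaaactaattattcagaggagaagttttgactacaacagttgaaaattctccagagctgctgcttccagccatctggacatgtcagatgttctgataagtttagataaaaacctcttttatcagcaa

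The libraries held 3302 to 10101 cells and 17.0 to 37.3 M (mega) UMIs (unique molecular identifiers, each standing for 1 captured transcript) per mouse. Of these, 23787 were epithelial cells by the authors' classes, 1298 to 4242 per mouse (13229 WT-labelled, 10558 KO-labelled). Mice 1 to 4 stood apart from mice 5 to 8: 53.5% to 79.6% of their epithelial cells had at least 50% mitochondrial UMIs, against 11.1% to 37.2%, and their median epithelial cell held 1155 to 1511 UMIs, against 2352.5 to 4165. Each set of 4 has 2 mice of each label. A set of 356 barcodes occurred in more than 1 mouse, in 719 cells, and 1316 cells under doublet names were not used. The targeted gene did not separate the labels. Spry2 (chromosome 14, 105891947 to 105896819, minus strand) stood at 10.4, 13.3, 15.7 and 49.3 CPM (UMIs of the gene per 1000000 UMIs of the summed cells) in the epithelial cells of KO-labelled mice 2, 3, 6 and 7, and at 11.2, 17.6, 27.7 and 37.6 in WT-labelled mice 1, 4, 5 and 8. The log2 fold change was −0.12 ± 0.35 (SE, edgeR quasi-likelihood test, adjusted p = 0.99993). Which part of the gene is floxed is not given in the sources used here, and a 3′ tag outside that part would not show its loss, so every direction between genotypes below rests on the labels alone.

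Across 30 annotated cell types with at least 20 cells, 9 of the 10 members had their highest pooled CPM in the authors' tuft type, 117 cells that were all WT-labelled because the authors' epithelial subtypes exist only there. The exception was Alox5ap, at 999 CPM in 32 neutrophils (exact Poisson interval 717 to 1355, counting error only) against 912 CPM in tuft cells. With mitochondrial UMIs left out of the totals, all 10 were highest in tuft cells. The mean over mice could be taken for 26 types, which do not include neutrophils, since no mouse had 20 of them. These genes were chosen as tuft genes, so the order describes the annotation and tests nothing. The number of tuft cells is small: only mice 5 and 8 gave 20 or more.

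**Figure D1:**
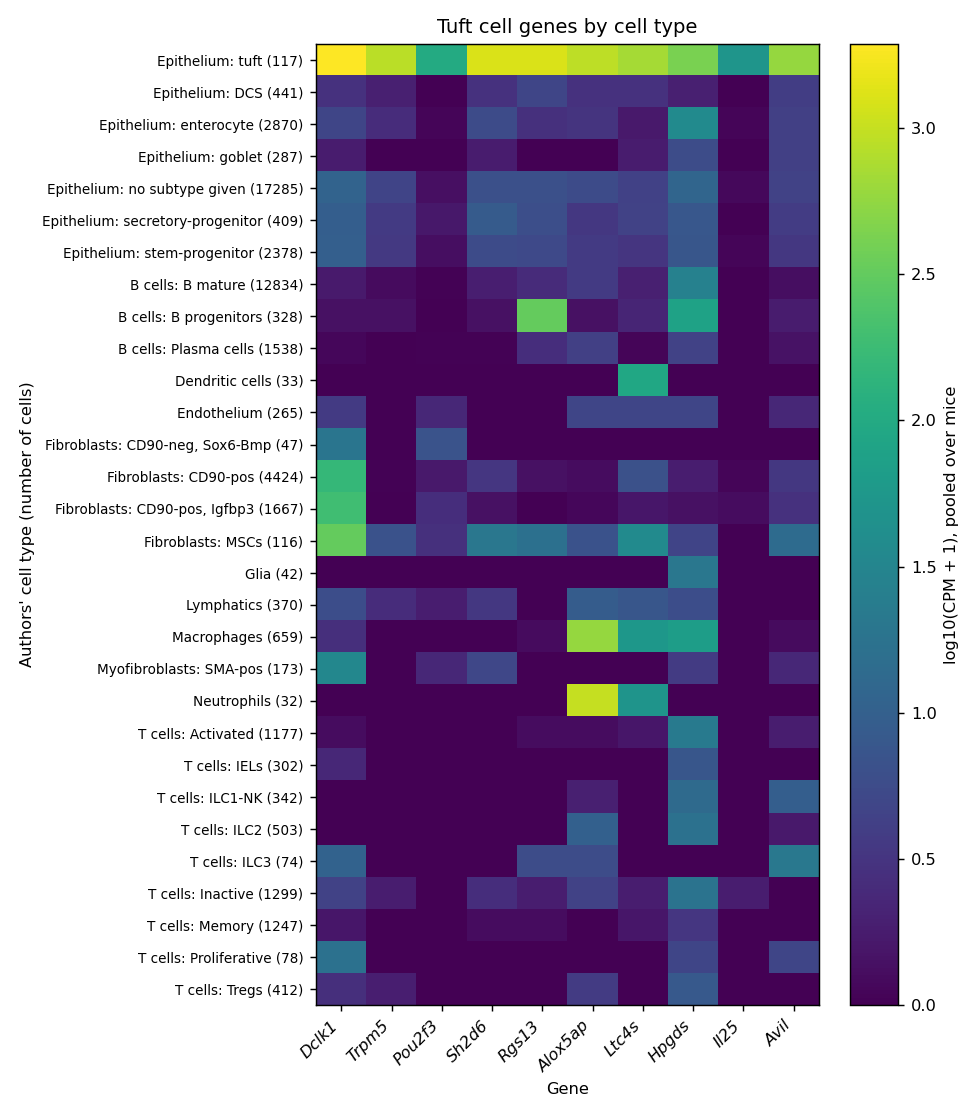
Pooled level of the 10 members (horizontal axis) in the authors' cell types (vertical axis, with the number of cells), as log10(CPM + 1) by colour from dark (0) to yellow. The tuft type is bright for every member, and single members are also bright in neutrophils and macrophages (Alox5ap), B progenitors (Rgs13 and Hpgds) and fibroblast types (Dclk1).

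Trpm5, Sh2d6, Avil, Pou2f3 and Il25 each had at least 72.3% (Pou2f3) of all their UMIs in epithelial cells. Trpm5, the calcium-gated channel of taste transduction, reached 893 CPM in tuft cells (845 and 884 in mice 5 and 8) and was found in 88.0% of them, 157 times the level in the highest other type, MSCs as the authors name them, where it rested on 3 UMIs in 1 of 116 cells. By means over mice the ratio was 96.2. Sh2d6 reached 1255 CPM (1160 and 1340) and was 66.3 times its level in MSCs, 18.9 CPM. Avil reached 578 CPM (666 and 577), 29.8 times the 19.4 CPM of ILC3, where it rested on 4 UMIs in 74 cells. Pou2f3 stood at 102 CPM (86.7 and 125) with a UMI in 32.5% of tuft cells, 17.3 times the 5.89 CPM of a Sox6-Bmp fibroblast type, which rested on 1 UMI in 47 cells. By means over mice, without that type, the ratio was 46.9 (to MSCs). Il25, the cytokine, stood at 50.9 CPM (59.6 and 38.0) in 18.8% of tuft cells, 59.9 times the 0.849 CPM of inactive T cells, where it rested on 1 UMI in 1299 cells. Pou2f3 and Il25 are thinly covered: 112 and 43 UMIs were counted in the whole matrix. After each cell was thinned to 1000 UMIs, the share of tuft cells with a UMI was 59.6% for Trpm5, 69.7% for Sh2d6, 41.3% for Avil, 9.17% for Pou2f3 and 6.42% for Il25.

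Dclk1 had a large home in fibroblasts as well. It reached 1933 CPM in tuft cells (interval 1814 to 2057; 2086 and 1848 in mice 5 and 8) and had a UMI in 91.5% of them, or 82.6% after thinning. MSCs held 324 CPM, with 57.8% of cells positive and 22.6% after thinning, and CD90-positive fibroblasts held 156 CPM. Of all 6102 Dclk1 UMIs, 69.9% lay in fibroblasts and 28.8% in epithelial cells. The fibroblast level was even across mice 1 to 8, at 149.6, 163.7, 175.0, 154.6, 164.1, 164.9, 183.0 and 182.9 CPM.

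Rgs13 was shared with B progenitors. Tuft cells held 1243 CPM (1132 and 1522 in mice 5 and 8), with 76.9% of cells positive, and the 328 B progenitors held 319 CPM with 65.5% positive (50.5% and 26.9% after thinning). In the 5 mice with enough B progenitors (1, 2, 4, 5 and 6) their level was 247, 323, 430, 305 and 353 CPM. B mature cells held 1.57 CPM and plasma cells 1.67. B progenitors also held markers of germinal centre B cells: Mef2b stood at 233 CPM against 5.99 in B mature cells, and S1pr2 at 127 against 0.705. The authors' name of that type was kept. Of the 1930 Rgs13 UMIs, 53.5% were epithelial and 45.4% came from B cells.

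Alox5ap and Ltc4s were shared with myeloid cells. Alox5ap, the protein that presents arachidonic acid to 5-lipoxygenase, stood at 912 CPM in tuft cells (851 and 987 in mice 5 and 8; 79.5% positive) and at 591 CPM in macrophages (71.9% positive). After thinning the positive shares were 47.7% in tuft cells, 40.5% in macrophages and 59.1% in neutrophils (13 of 22 cells). Of its 3380 UMIs, 70.5% were in macrophages and 23.0% in epithelial cells. Ltc4s, which joins leukotriene A4 to glutathione, stood at 693 CPM in tuft cells (607 and 767), 7.79 times the 89.0 CPM of 33 dendritic cells. Macrophages held 53.3 CPM and neutrophils 48.7, and 59.5% of the 987 Ltc4s UMIs were epithelial.

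Hpgds was read in many types besides tuft cells, and 47.1% of its 2643 UMIs were epithelial. In tuft cells it stood at 427 CPM (428 and 414 in mice 5 and 8, with 70.1% of cells positive), 5.54 times the level of B progenitors, 77.1 CPM. Macrophages held 66.9 CPM, B mature cells 26.4 and activated T cells 21.2. Enterocytes held 36.4 CPM over 2870 cells (40.3, 26.5, 51.0 and 29.9 in mice 1, 4, 5 and 8), so all 4 WT-labelled mice carried the enterocyte signal. Other epithelial types were lower: goblet cells held 4.80 CPM, stem-progenitor cells 6.57 and deep crypt secretory cells 0.965, with 1 of 441 cells positive. After thinning, 3.83% of enterocytes, 2.30% of B mature cells and 10.6% of B progenitors had a UMI.

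Since the authors' tuft name covers only WT-labelled cells, the members themselves were counted in the epithelial cells of all mice: a cell was kept if it had a UMI of at least 2 of the 10 genes. This gave 239 of 23787 epithelial cells. Of the 117 named tuft cells, 112 were among them. The authors' cluster 25, which exists for both labels, held 155 epithelial cells (118 WT-labelled, 37 KO-labelled), of which 150 had at least 2 members (96.8%) and the median cell had 8. There were 18, 12, 19, 8, 30, 4, 2 and 62 such cells in mice 1 to 8. The cells kept were not tuft cells alone. Pooled over them, the enteroendocrine markers Chgb, Chga and Gcg stood at 301, 102 and 207 CPM, against 38.4, 14.7 and 25.4 in all epithelial cells, and the macrophage marker C1qb at 15.6 against 1.06. None of these 4 genes had a UMI in cluster 25. Summed over 8 enteroendocrine markers, the median mouse was at 2720 CPM (0 to 11717) among KO-labelled and at 737 CPM (43.7 to 1887) among WT-labelled mice, and 6 macrophage markers reached 904 and 7.28 CPM. Summed over 4 fibroblast markers, the median was 347 CPM (61.0 to 1260) among KO-labelled and 12.8 CPM (1.58 to 37.1) among WT-labelled mice. The part of such cells in the shares below was not tested, and shares of cluster 25 are given beside them. Only 9 epithelial cells had all 10 members. Among the other epithelial cells, 22511 had none of the 10 and 1032 had exactly 1.

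**Figure D2:**
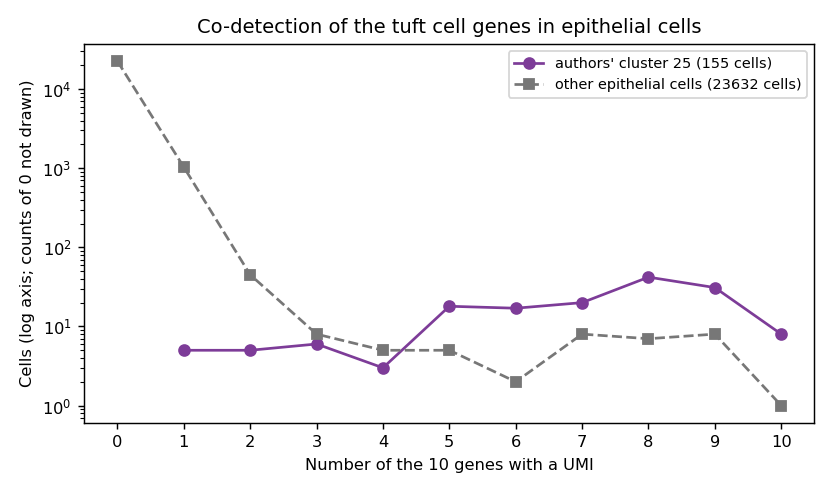
Number of epithelial cells (vertical axis, log scale; counts of 0 are not drawn) by how many of the 10 members had a UMI in the cell (horizontal axis), for the 155 cells of cluster 25 (circles) and the other epithelial cells (squares). The other cells are mostly at 0 (22511 cells) and 1 (1032 cells), and those of cluster 25 peak at 8.

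Each member was set against the other 9, so that its own UMIs played no part in the choice of cells. Dclk1 was found in 80.5% of epithelial cells with at least 2 of the other 9 and in 0.322% of the rest. Sh2d6 was found in 78.9% against 0.331%, Trpm5 in 72.4% against 0.106% and Rgs13 in 66.4% against 0.204%. Alox5ap, Avil, Hpgds and Ltc4s were found in 59.8% to 63.9% of chosen cells. Pou2f3 was found in 24.7% and Il25 in 13.8%, each against 0.00425% outside. Outside the chosen cells Hpgds was again apart, with 2.98% of cells positive and only 31.5% of its epithelial UMIs inside, where the other members had 80.7% (Avil) to 98.8% (Pou2f3). The chosen cells were deeper, with medians of 3772 to 4160 UMIs against 1728 to 1729.5, and the part of depth in these shares was not tested.

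The most frequent pairs in epithelial cells were Dclk1 with Sh2d6 (171 cells), Dclk1 with Trpm5 (162) and Trpm5 with Sh2d6 (160). Of the 239 chosen cells, 89 lay outside cluster 25, 45 of them with exactly 2 members and 31 with 5 or more. By the authors' subtypes, 40 of 2378 stem-progenitor cells (1.68%), 8 of 409 secretory-progenitor cells (1.96%), 18 of 2870 enterocytes (0.627%) and 1 of 441 deep crypt secretory cells qualified. Stem-progenitor and secretory-progenitor cells were the deepest of these types, with medians of 9138 and 8024 UMIs against 2257.5 in enterocytes and 1167 in deep crypt secretory cells. None of 287 goblet cells did, which allows a share of up to 1.28%.

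Outside the epithelium, cells with at least 2 members had other pairs. Among 659 macrophages 125 had 2 or more, led by Alox5ap with Ltc4s (71 cells) and Alox5ap with Hpgds (69). Among 6262 fibroblasts 124 did, led by Dclk1 with Ltc4s (45), and among 14700 B cells 111 did, of which 92 paired Rgs13 with Hpgds. Asking for 3 or more of the 7 members outside the eicosanoid genes left 178 epithelial cells, 2 fibroblasts, 1 B cell, 1 lymphatic cell and 0 macrophages.

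The share of epithelial cells with at least 2 members differed most among the WT-labelled mice. It was 0.698% in mouse 1 (26 cells, exact binomial interval 0.456 to 1.02), 0.424% in mouse 4 (18 cells, 0.252 to 0.670), 1.98% in mouse 5 (53 cells, 1.49 to 2.58) and 3.36% in mouse 8 (87 cells, 2.70 to 4.13). In KO-labelled mice 2, 3, 6 and 7 it was 0.561% (23 cells), 0.580% (22), 0.366% (5) and 0.385% (5). All 4 KO-labelled mice thus lay below mice 1, 5 and 8 but not all below mouse 4, and the groups overlapped. The means were 0.473% ± 0.113 and 1.62% ± 1.35 (SD, n = 4 each). No test was made of this share, since the genes were chosen with earlier results of these data known. Within mice 1 to 4 the means were 0.570% (KO-labelled) and 0.561% (WT-labelled), and within mice 5 to 8 they were 0.376% and 2.67%. The labels thus stood apart in mice 5 to 8 and not in mice 1 to 4, and without mouse 8 the difference shrank from −1.14 to −0.56 percentage points.

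Depth differed between mice, so each cell was also thinned to 1000 UMIs, leaving out 5689 shallower epithelial cells. The share was then 0.431%, 0.705%, 0.255% and 0.192% in KO-labelled mice 2, 3, 6 and 7 and 0.696%, 0.305%, 1.30% and 2.55% in WT-labelled mice 1, 4, 5 and 8 (0.396% ± 0.230 and 1.21% ± 0.98). The same cells before thinning gave 0.576% ± 0.214 and 1.77% ± 1.25. In cells with under 50% mitochondrial UMIs the means were 1.07% ± 0.716 and 2.44% ± 1.30. There WT-labelled mice 1, 4, 5 and 8 were at 2.53%, 0.659%, 2.80% and 3.78%, so mouse 1 stood near mouse 5. With such cells also thinned to 1000 UMIs, the means were 0.944% ± 0.822 and 1.84% ± 1.00. KO-labelled mice 2, 3, 6 and 7 were then at 1.26%, 1.96%, 0.325% and 0.231%. WT-labelled mice 1, 4, 5 and 8 were at 2.11%, 0.478%, 1.89% and 2.89%, so mice 1 and 3 lay above mouse 5. Cells of cluster 25 made up 0.310% ± 0.143 and 1.05% ± 0.98 of epithelial cells. The part of depth and mitochondrial share in the differences between mice was not tested.

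**Figure D3:**
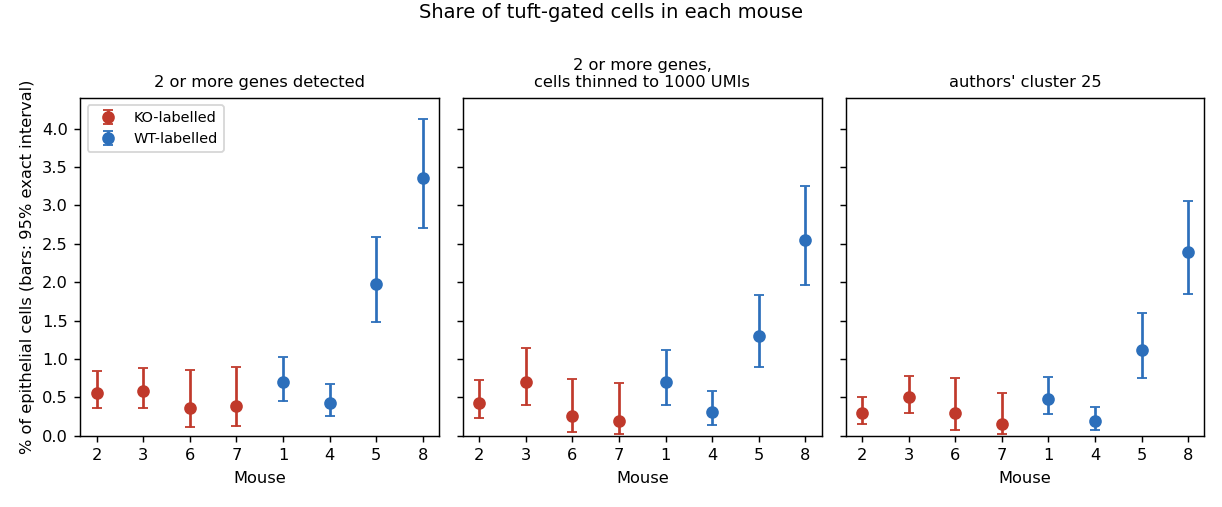
Percent of epithelial cells in each mouse (points, with exact 95% intervals that cover counting error only) that had at least 2 of the 10 members, had them after thinning to 1000 UMIs, or lay in cluster 25, in 3 panels. In each panel mice 5 and 8 lie above the other 6 mice, which sit between 0.366% and 0.698% in the first panel.

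Summed over all epithelial cells of a mouse, no member differed between the labels beyond the spread between mice. In such sums, fewer tuft cells and less RNA per tuft cell cannot be told apart. Of 11723 genes tested, 0 passed an adjusted p of 0.05 in edgeR's quasi-likelihood test (0% called). At an unadjusted p under 0.05 there were 96 (0.819%), fewer than such a threshold passes by chance, and none was called by DESeq2. Of the members, 8 passed the filter on low counts, and Pou2f3 and Il25 did not. All 8 fitted values were lower in KO-labelled mice, where 49.3% of all genes were, with a median log2 fold change of −0.42 against 0.002. Single mice moved that median: it was −1.34 without mouse 3 (3 members at an unadjusted p under 0.05), −0.69 without mouse 4, −0.25 without mouse 5 and −0.14 without mouse 6 or mouse 7, and without mouse 6 only 6 of 9 members tested were lower. The main fit has no term for mice 1 to 4 against mice 5 to 8, so any difference between these sets lies within the spread between mice. With such a term, edgeR called 0 genes, all 8 members were lower and their median log2 fold change was −0.72. The members share their cells, so their common direction counts as 1 observation of those cells and not as 8.

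Trpm5 stood at 4.51, 11.9, 1.56 and 1.23 CPM in KO-labelled mice 2, 3, 6 and 7 and at 8.21, 2.03, 10.5 and 13.9 in WT-labelled mice 1, 4, 5 and 8. Mouse 3 was as high as the WT-labelled mice and mouse 4 as low as the KO-labelled ones, and the log2 fold change was −0.57 ± 0.75 (95% interval −2.24 to 1.10, edgeR adjusted p = 0.99993). Dclk1, at 8.49, 34.6, 3.25 and 4.21 CPM against 15.7, 5.26, 30.5 and 29.8, had its highest value of all in KO-labelled mouse 3. Its log2 fold change was −0.41 ± 0.77 (−2.12 to 1.31). Sh2d6 was measured at 7.55, 14.4, 1.95 and 2.81 CPM against 10.6, 3.60, 16.1 and 22.1, a log2 fold change of −0.68 ± 0.68 (−2.20 to 0.85). Rgs13 was measured at 4.82, 15.0, 1.56 and 4.04 CPM against 5.10, 4.15, 14.9 and 23.3 (−0.62 ± 0.68), and Avil at 3.15, 9.50, 2.08 and 1.40 against 3.61, 3.42, 9.80 and 9.08 (−0.43 ± 0.60). In each of these 5 genes, mice 3, 5 and 8 held the highest values and mouse 6 or 7 the lowest.

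The eicosanoid members followed with smaller fitted differences. Alox5ap was at 4.19, 12.9, 3.12 and 4.91 CPM in KO-labelled mice 2, 3, 6 and 7 and at 6.22, 2.12, 11.6 and 14.6 in WT-labelled mice 1, 4, 5 and 8 (log2 fold change −0.26 ± 0.58, 95% interval −1.54 to 1.02). Ltc4s was at 3.67, 9.37, 1.30 and 3.51 against 5.10, 1.38, 8.02 and 12.0 (−0.34 ± 0.66). Hpgds, at 13.7, 17.3, 7.66 and 11.4 against 18.0, 11.7, 18.5 and 11.8, varied least between mice and had a log2 fold change of −0.15 ± 0.41 (−1.06 to 0.77). The thinly covered members, Pou2f3 and Il25, were given no test: Pou2f3 was at 0.419, 1.10, 0.130 and 0.351 CPM against 0.249, 0.369, 1.14 and 1.90, and Il25 at 0.210, 0.487, 0.260 and 0 against 0.498, 0.185, 0.704 and 0.549. The intervals of the 8 tested members all reach past a 2-fold difference in at least 1 direction, so a difference of that size lies within them.

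**Figure D4:**
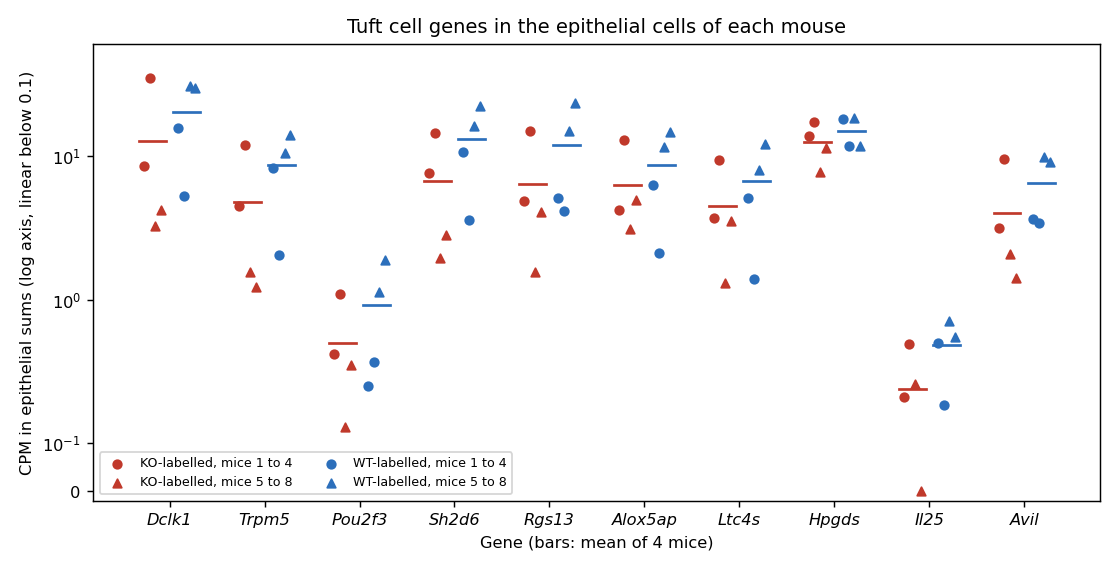
Epithelial CPM of each member in each of the 8 mice (log axis, linear near 0), coloured by genotype label, with circles for mice 1 to 4, triangles for mice 5 to 8 and bars at the mean of 4 mice. KO-labelled and WT-labelled points overlap for every member, and mouse 3 is the highest KO-labelled mouse for each.

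The direction was not shared by the 2 sets of mice. The fits within each set and their interaction were added after seeing the data, so their p-values are not those of a planned test. In mice 1 to 4 alone, all 8 tested members were higher in KO-labelled mice, by 0.18 (Hpgds) to 1.16 (Rgs13) on the log2 scale, and 0 of 11476 genes were called (0%; edgeR adjusted p = 0.999892 for the members). In mice 5 to 8 alone, all 9 tested members were lower, and 4 of 12720 genes were called (0.0314%), 2 of them members. Dclk1 fell by 3.11 ± 0.22 on the log2 scale (SE, edgeR adjusted p = 0.0129) and Sh2d6 fell by 3.10 ± 0.28 (adjusted p = 0.0347), with 2 mice per label. An SE from so few mice is itself uncertain. Trpm5, at −3.17, missed the threshold (adjusted p = 0.0512), as did Rgs13 at −2.90 and Avil at −2.49 (adjusted p = 0.120 for both). The adjusted p over all alternatives ranged from 0.0129 to 0.999996 for Dclk1 and from 0.0347 to 0.999996 for Sh2d6. The difference between the 2 sets was itself tested: an interaction term called 0 of 11723 genes (0%; 556 at an unadjusted p under 0.05). The members' interaction values (mice 5 to 8 minus mice 1 to 4, log2) ran from −0.93 for Hpgds to −4.15 for Dclk1, with edgeR adjusted p-values of 0.399 to 0.999. Unadjusted, the edgeR p-value was 0.0843 for Hpgds and ran from 0.000155 (Rgs13) to 0.00525 (Ltc4s) for the other members tested. The members share their cells, so these p-values are not separate observations. The sets also differ in mitochondrial share and depth, and the part of these in the difference was not tested.

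Markers of other cell types in the epithelial sums were read beside these values. Summed over 6 macrophage markers, KO-labelled mice ranged from 2.68 to 23.4 CPM and WT-labelled mice from 0.150 to 21.7. Mast cell markers, of which 2 of 7 (Cpa3 and Ms4a2) were at 0, ranged from 6.19 to 18.6 and from 8.12 to 23.6. That sum was mostly Kit, with 1388 UMIs in epithelial cells against 19 for Hdc, 16 for Tpsb2, 8 for Mcpt2 and 2 for Mcpt1. Kit also stood at 313 CPM in cluster 25. Neutrophil markers reached at most 2.49 CPM, B cell markers ran from 19.8 to 31.8 and from 1.45 to 50.5, and fibroblast markers from 39.4 to 113 and from 17.7 to 109. The summed members ranged from 22.9 to 126 and from 34.2 to 139. Once the 239 cells with at least 2 members were set aside, Hpgds alone still passed the filter, at 11.8, 10.0, 6.64 and 10.1 CPM in KO-labelled and 14.1, 10.5, 11.8 and 5.00 in WT-labelled mice (log2 fold change −0.03, 0 genes called by edgeR). The Hpgds outside such cells thus did not differ between the labels beyond the spread between mice, at 9.64 ± 2.17 and 10.3 ± 3.86 CPM. With this spread, equal levels are not shown.

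Within cluster 25, the levels of the 2 labels were set side by side without a test, since no KO-labelled mouse had 20 of its cells. Pooled over 37 KO-labelled and 118 WT-labelled cells, Dclk1 stood at 1878 CPM (exact Poisson interval 1674 to 2100) and 1906. Trpm5 stood at 814 and 872, Alox5ap at 862 and 883, Ltc4s at 654 and 676, Hpgds at 453 and 408, and Avil at 502 and 549. Sh2d6 stood at 985 (839 to 1149) and 1247 (1154 to 1346), and Rgs13 at 924 (782 to 1083) and 1210 (1118 to 1307), so that the counting intervals of these 2 genes did not overlap. The spread between mice was wider than those intervals. Sh2d6 ran from 801 to 1462 CPM over KO-labelled mice and from 735 to 1367 over WT-labelled mice. Rgs13 ran from 627 to 1417 and from 315 to 1430, so by mouse the labels overlapped for both genes. Dclk1 ran over 2157, 1071, 2262, 525, 2054, 1984, 1294 and 1805 CPM in mice 1 to 8, where mice 6 and 7 gave only 4 and 2 cells. Pou2f3 stood at 61.2 and 104 CPM and Il25 at 42.8 and 49.1.

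**Figure D5:**
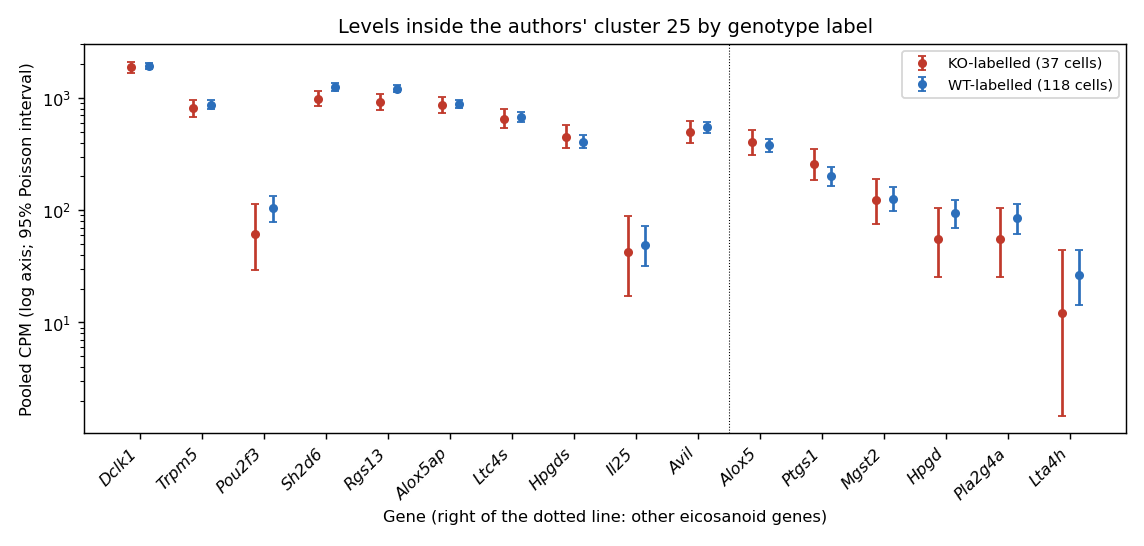
Pooled CPM (log axis) in the cells of cluster 25 for 37 KO-labelled and 118 WT-labelled cells, for the 10 members and, right of the dotted line, other eicosanoid genes, with exact 95% Poisson intervals that cover counting error only. The intervals of the 2 labels overlap for 8 members and lie apart for Sh2d6 and Rgs13. By mouse, not drawn here, the levels of these 2 genes overlap between the labels.

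The other genes of the pathway were read in 3 lists of 43 genes. In the epithelial comparison, 7 of 12 taste and calcium signalling genes passed the filter (5 lower and 2 higher in KO-labelled mice, median log2 fold change −0.17), 7 of 12 other eicosanoid genes (6 lower, 1 higher, −0.18) and 17 of 19 regulators and receptors (14 lower, 3 higher, −0.16), against a median of 0.002 over all genes. None was called by edgeR, and 0 had an unadjusted p under 0.05. The genes of each list with the highest epithelial levels were as follows. Trpm4, a relative of Trpm5, had a mean of 70.1 CPM over KO-labelled and 76.7 over WT-labelled mice, and Itpr3 and Itpr2, receptors that release stored calcium, at 60.8 and 58.9 and at 20.5 and 24.1. Mgst2, a microsomal glutathione transferase, stood at 116 and 135, Hpgd, which breaks prostaglandins down, at 97.8 and 113, and Lta4h, which makes leukotriene B4, at 28.1 and 26.7. Cd24a stood at 128 and 148, the crypt factor Sox9 at 93.6 and 85.4, and the interleukin 13 receptor chain Il13ra1 at 43.5 and 44.6.

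Several rarer genes of these lists were high in cluster 25. The genes in the rest of this paragraph were chosen after their values were seen. In cluster 25 against the other epithelial cells, Alox5, the lipoxygenase that Alox5ap serves, stood at 384 CPM against 0.660, and Ptgs1, the cyclooxygenase upstream of Hpgds, at 215 against 1.21. Plcb2 stood at 190 against 0.603, the taste G protein Gnat3 at 130 against 0.228, the short-chain fatty acid receptor Ffar3 at 177 against 0.216, Chat, which makes acetylcholine, at 205 against 0.342, and the interleukin 25 receptor chain Il17rb at 104 against 0.797. Cluster 25 was made from the cells' own transcripts, so these values describe it and test nothing. Hpgd (85.1 against 120), Lta4h (23.1 against 28.4), Itpr3 (36.1 against 59.2) and Trpm4 (24.5 against 75.3) were lower in cluster 25. Listed at 0 there were Sucnr1, Gnb3 and Tas1r1 of the taste list, Ptgs2, Ptges, Ptgds, Alox12 and Alox15 of the eicosanoid list, and Tslp, at a floor of 3 UMIs of 693402. That floor is 4.33 CPM. Ptgds and Gnb3 had no UMI in any epithelial cell. All the others listed at 0 stood between 0.0114 (Sucnr1) and 1.35 CPM (Ptges) in the other epithelial cells, below what the floor can show. These zeros therefore do not set cluster 25 apart.

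Markers of other cell types were partly at 0 in cluster 25. At 0 were 5 of 6 macrophage markers, 3 of 3 neutrophil markers, 5 of 7 mast cell markers, 6 of 8 enteroendocrine markers and 4 of 5 ILC2 markers. Among those not at 0, Kit, a mast cell marker, stood at 313 CPM, Hdc rested on 1 UMI, and Areg, of the ILC2 list, stood at 27.4 CPM. None of the 3 B cell, 3 T cell, 3 plasma cell and 6 colonocyte markers was at 0, and Cd79a, of B cells, stood at 49.0 CPM, against 2674 in B mature cells. Of the 6 goblet markers, 0 were at 0. They stood at 757 (Tff3) to 1170 CPM (Fcgbp), against 1085 (Fcgbp) to 2732 (Zg16) in all epithelial cells. Summed over these 6, the median mouse was at 430 CPM (209 to 25511) among KO-labelled mice. Among WT-labelled mice it was at 1277 CPM (501 to 4121). The part of RNA or cells of other types in the levels of the members in cluster 25, Hpgds and Rgs13 among them, was not tested.

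In the other cell classes, no member that passed the filter was called. In B cells, 0 of 10444 genes were called by edgeR (0%; 109 at an unadjusted p under 0.05; DESeq2 0). Rgs13 was at 12.5 ± 9.27 CPM (KO-labelled B cells) and 19.4 ± 15.5 (WT-labelled) (log2 fold change −0.82 ± 0.68), Hpgds at 18.3 and 18.9 (−0.21 ± 0.39), and Alox5ap had −0.59 ± 0.64. In T cells, 0 of 8706 genes were called (0%; 157 unadjusted; DESeq2 0), and Hpgds stood at 11.8 ± 4.16 and 15.1 ± 3.73 CPM (−0.42 ± 0.31). In fibroblasts, 0 of 11023 were called (0%; 197 unadjusted; DESeq2 0), and Dclk1 stood at 172 ± 9.13 and 163 ± 14.7 CPM, a log2 fold change of 0.12 ± 0.11 with a 95% interval of −0.14 to 0.37. A 2-fold change of fibroblast Dclk1 lies outside that interval.

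Macrophages were compared in 4 KO-labelled and 3 WT-labelled mice, mouse 8 having only 7 macrophages. EdgeR called 6 of 5407 genes (0.111%; 147 at an unadjusted p under 0.05; DESeq2 7), none of them a member. Alox5ap stood at 637 ± 140 and 537 ± 114 CPM (log2 fold change 0.15 ± 0.24), Ltc4s at 62.7 and 41.9 (0.22 ± 0.44) and Hpgds at 64.3 and 51.7 (−0.07 ± 0.44). For Hpgds the fitted value and the plain means differ in sign. No member passed the filter in endothelial or lymphatic cells.

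Over 26 cell types and 15613 genes, the genes whose log2(CPM + 1) was most like the mean of the members were Siglecf (Pearson r = 0.971), 1810046K07Rik (0.969), Gnat3 (0.966), Ly6g6f (0.962), Dnah5 (0.961), Pstpip2 (0.960), St18 (0.957), Sh2d7 (0.955), Ffar3 (0.954) and Ccdc129 (0.949). Each member was also set against the mean of the other 9: Trpm5 was the most like it (r = 0.943), Dclk1 reached 0.616 and Hpgds was the least like it (0.502). The types share libraries and differ in depth, so these are descriptions.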

How the data were processed

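The deposited matrix holds raw UMI counts, not normalized, for 31053 genes in 53080 cells of 500 to 113660 UMIs. The authors also deposited cell size factors (ratio of a cell's total to the geometric mean), used here only to check the cell order. Sorted by mouse and barcode, 53080 of them matched the matrix within 1e-06, against 16 in file order. Reads were processed with Cell Ranger 3.0.2 on mm10, per the submitters' processing notes. How the authors made clusters and names is not given in the sources.

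The mouse was the replicate. UMIs were summed per mouse and class, doublet names left out, and tested with edgeR 4.0.16 in R 4.3.3 (TMM, filterByExpr, quasi-likelihood F test, Benjamini-Hochberg, threshold 0.05), with DESeq2 1.42.0 beside it. On simulated data for the epithelial comparison (11723 genes), 36 of 100 genes changed 2-fold and 92 of 100 changed 4-fold were recovered, with 7 false calls. The changed genes were drawn at random, so these rates are not those of the members. Epithelial SEs of the members ran from 0.41 (Hpgds) to 0.77 (Dclk1) on the log2 scale. CPM are plain sums. The labels say that the mice are separate animals. All 10 members are named; of other lists, the 3 genes with the highest epithelial CPM. Alternatives are other models, filters, cell sets, depths and left-out mice. Fits within mice 1 to 4 or 5 to 8, their interaction, sums without cells of 2 or more members, cluster 25 shares and shares in cells of 1000 or more UMIs were added after seeing the data. The members and lists were chosen with earlier results of these data known. Intervals cover 95% and counting error only where a mouse or pool is 1 value. Python 3.11.15, numpy 2.4.6, pandas 2.3.3, scipy 1.17.1 and matplotlib 3.10.9 served for the rest. A marker gene is not reported here.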

Additional observations from a re-analysis of the deposited data

Results flagged for a closer look

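Dclk1 in the epithelial cells of KO-labelled mouse 3, at 34.6 CPM, lay far from the other KO-labelled mice, which ranged from 3.25 to 8.49 CPM. Its gap to the nearest of them was 0.833 of the group's range, above Dixon's critical value for 4 samples. In all, 41 groups of values were looked at in this way, and chance picks out about 1 in 20.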

How the results depend on the processing

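No paired analysis was made, because which mice shared a litter is not given in the sources used here. For counts of called members and shares of cells, 72 alternatives stayed near the reported value, which for a count says nothing of direction (mice 1 to 4 alone also gave 0 called, with 0 of 8 members lower), and 2 moved: cells with at least 1 member gave a difference in share of −2.22 percentage points (4.56% ± 0.85 against 6.78% ± 2.93), and mice 5 to 8 alone gave 2 called members. Single members kept their direction in 186 alternatives and passed the threshold in 2 (Dclk1 and Sh2d6, mice 5 to 8), and 18 turned. In mice 1 to 4 alone the log2 fold changes were Dclk1 1.05, Trpm5 0.75, Sh2d6 0.71, Rgs13 1.16, Alox5ap 1.10, Ltc4s 1.09, Hpgds 0.18 and Avil 0.92. DESeq2 gave 0.069 for Hpgds in macrophages. The causes were not tested. Leaving out 1 mouse at a time gave −1.54 to −0.56 percentage points for the share of cells with at least 2 members, 0 called members in all 8 epithelial fits, a median member log2 fold change of −1.34 to −0.14, and ranges of −1.66 to −0.048 for Dclk1, −1.52 to −0.22 for Trpm5, −1.35 to −0.32 for Sh2d6, −1.53 to −0.21 for Rgs13 and −1.33 to −0.11 for Avil. Ranges crossed 0 for Alox5ap (−0.97 to 0.029), Ltc4s (−1.05 to 0.014) and Hpgds (−0.42 to 0.12) in epithelium, Alox5ap (−1.19 to 0.28) and Hpgds (−0.44 to 0.027) in B cells and Hpgds in macrophages (−0.32 to 0.70). Alternatives planned inside cells with at least 2 members were not run, since only 2 KO-labelled mice had enough of them. Depth limits Pou2f3 and Il25 most.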
